A study of Mus musculus with 12 samples.

Results

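The genes described here are 9 negative-feedback regulators of MAP kinase signalling: the phosphatases Dusp1, Dusp4, Dusp5, Dusp6 and Dusp16, and the Sprouty and Spred proteins Spry1, Spry2, Spry4 and Spred1. They were chosen by name, as a functional family, out of 16593 genes with a named probe on the array. Of the 9, 8 had at least 1 probe, 15 probes in all, and Dusp5 was not analysed here. Dusp1, Dusp4, Dusp6, Dusp16, Spry4 and Spred1 were detected on at least 1 array, and Spry1 and Spry2 on none. Over the whole platform 8128 genes were detected on at least 1 array.

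MAP kinases are switched on by phosphorylation of a threonine and a tyrosine in their activation loop, and the dual-specificity phosphatases (Dusp) remove both phosphates. Sprouty and Spred proteins act further upstream and dampen the signal from receptor tyrosine kinases through Ras and Raf to ERK. Many of these regulators are transcribed in response to the signal they restrain. In glial and immune cells exposed to inflammatory stimuli, Dusp1 is a well-known brake on p38 and JNK.

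The arrays measured RNA of mouse astrocytes that had been derived in culture from neural stem cells, with the cell line given as Rosa25/OG2 for every group. In 10 groups, coded E4 to E33, the astrocytes were activated with 1 µg/ml lipopolysaccharide (LPS, a bacterial cell wall component) and 10 ng/ml interferon-gamma (IFN-γ), and then given the hit compound of that code for 4 h. The activated control received LPS and IFN-γ and no compound, and the non-activated control received neither. The time given is 4 h for both controls as well. Every group had 4 days of differentiation, 14 days of maturation and 10% serum. The compounds are known here by code alone, and their doses are not given in the labels. Each of the 12 groups is 1 array, so no value below has a replicate error, a test or a p-value.

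All levels are log2 intensities after background correction and quantile normalisation, on 1 Illumina bead array per group. A probe was taken as detected where its detection p-value against the negative controls of the array was under 0.01, and a gene was read from its brightest probe. Where 1 of 2 arrays did not detect a probe, the floor of that array (its lowest detected value) stood in for any value below it. Such a fold is a lower limit, given with the words at least. A difference was called at 2-fold. For scale, the SD over all detected genes of the log2 difference between 2 arrays was 0.20 for E5 against the activated control, 0.44 for E4 and 0.95 for E29. The number of probes detected was 9106 with E29 and between 10093 and 10719 on the other arrays, and the floor was 5.99 with E29 and between 5.37 and 5.59 elsewhere. Of the 8 astrocyte markers with a probe, 7 were detected on every array, among them Gfap at 12.37 to 12.87. The sum of the deposited intensities of all 8, not normalised and with the undetected marker included, was highest with E29, at 51252. It was lowest with E23, at 35618. None of 6 microglial markers was detected on any array, and none of 4 oligodendrocyte or 3 endothelial markers was. The neuronal markers Map2 and Syt1 and the neural stem cell markers Nes and Sox2 were detected.

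Dusp1, a nuclear phosphatase that acts on p38 and JNK and is induced as an immediate early gene, was above the non-activated level on all activated arrays except E29. It stood at 10.40 with E4, 9.38 with E5, 10.00 with E14, 10.52 with E18, 9.40 with E19, 9.92 with E20, 10.06 with E21, 10.07 with E23 and 9.45 with E33. It was not detected with E29, where the measured value was 4.75. The activated control stood at 9.98 and the non-activated control at 8.13. Thus 10 of the 11 activated arrays lay above the non-activated array, and E29 lay below it. In deposited intensity the probe (ILMN_2622983) read 116.3 with E29, with a detection p-value of 0.21, against 1183.3 in the activated control and 420.1 in the non-activated control. With 1 array per group, neighbours in the order of levels, such as E21 and E23, cannot be said to differ.

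Dusp4, an inducible nuclear phosphatase of ERK and JNK, had its highest level with E4. It stood at 8.34 with E4, 6.42 with E5, 6.96 with E14, 7.39 with E18, 6.95 with E19, 6.29 with E20, 6.91 with E21, 6.30 with E23 and 5.88 with E33. It was not detected with E29 (4.48). The activated control stood at 6.38, and in the non-activated control the probe was not detected (5.24). In deposited intensity the probe (ILMN_2689731) read 359.9 with E4 and 106.9 with E29, against 184.2 in the activated control. E4 was nearly 1 log2 unit above E18, the next highest array, and E29 and the non-activated control were the arrays without detection.

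Dusp6, a cytoplasmic phosphatase that prefers ERK, varied little among the activated arrays other than E29. It stood at 8.69 with E4, 8.73 with E5, 8.84 with E14, 8.75 with E18, 8.71 with E19, 8.68 with E20, 8.96 with E21, 8.88 with E23 and 8.70 with E33. With E29 it was at 5.97, just under the floor of 5.99. The activated control stood at 8.85 and the non-activated control at 8.11. The 9 detected compound arrays therefore spanned 8.68 to 8.96 and took in the activated control. In deposited intensity the probe (ILMN_2925711) read 141.2 with E29, against 595.2 in the activated control and 416.4 in the non-activated control. A second probe (ILMN_1248537) was detected on 11 arrays and ranged from 4.44 with E29, not detected, to 6.58 with E19.

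Dusp16, a phosphatase with a preference for JNK and p38, was detected on all 12 arrays. It stood at 9.70 with E4, 9.18 with E5, 9.04 with E14, 9.15 with E18, 9.19 with E19, 9.48 with E20, 9.39 with E21, 9.32 with E23, 6.82 with E29 and 9.88 with E33. The activated control stood at 9.51 and the non-activated control at 9.13. E29 was the lowest array by a wide margin, and the others lay within 1 log2 unit of each other. A second probe (ILMN_2754148) was detected on 11 arrays. It read 5.48 with E29, not detected, and was highest with E4 and E33 at 8.54, against 8.16 in the activated control and 7.87 in the non-activated control. The third probes of Dusp6 and Dusp16 were not detected on any array.

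Spred1, which binds neurofibromin and restrains Ras, was also detected on all 12 arrays. It stood at 9.45 with E4, 10.80 with E5, 10.51 with E14, 10.36 with E18, 10.66 with E19, 10.63 with E20, 10.78 with E21, 10.61 with E23, 8.11 with E29 and 10.37 with E33. The activated control stood at 10.50 and the non-activated control at 10.26. In deposited intensity its probe (ILMN_2490252) ran from 296.3 with E29 to 2002.7 with E5. Only E4 and E29 lay below the non-activated control.

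Spry4, an inhibitor of receptor tyrosine kinase signalling to ERK, stayed near the detection limit. It was detected on 6 arrays, at 5.86 with E4, 5.75 with E20, 5.66 with E23, 5.79 with E33, 5.49 with E14 and 5.80 in the activated control. On the other 6 arrays it was not detected, with measured values from 5.30 (E21) to 5.74 (E29). The whole range over 12 arrays was 0.56, and values at this level carry no order between groups. The probes of Spry1 read 4.4 to 5.13 and that of Spry2 4.41 to 4.52, not detected on any array.

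**Figure D1:**
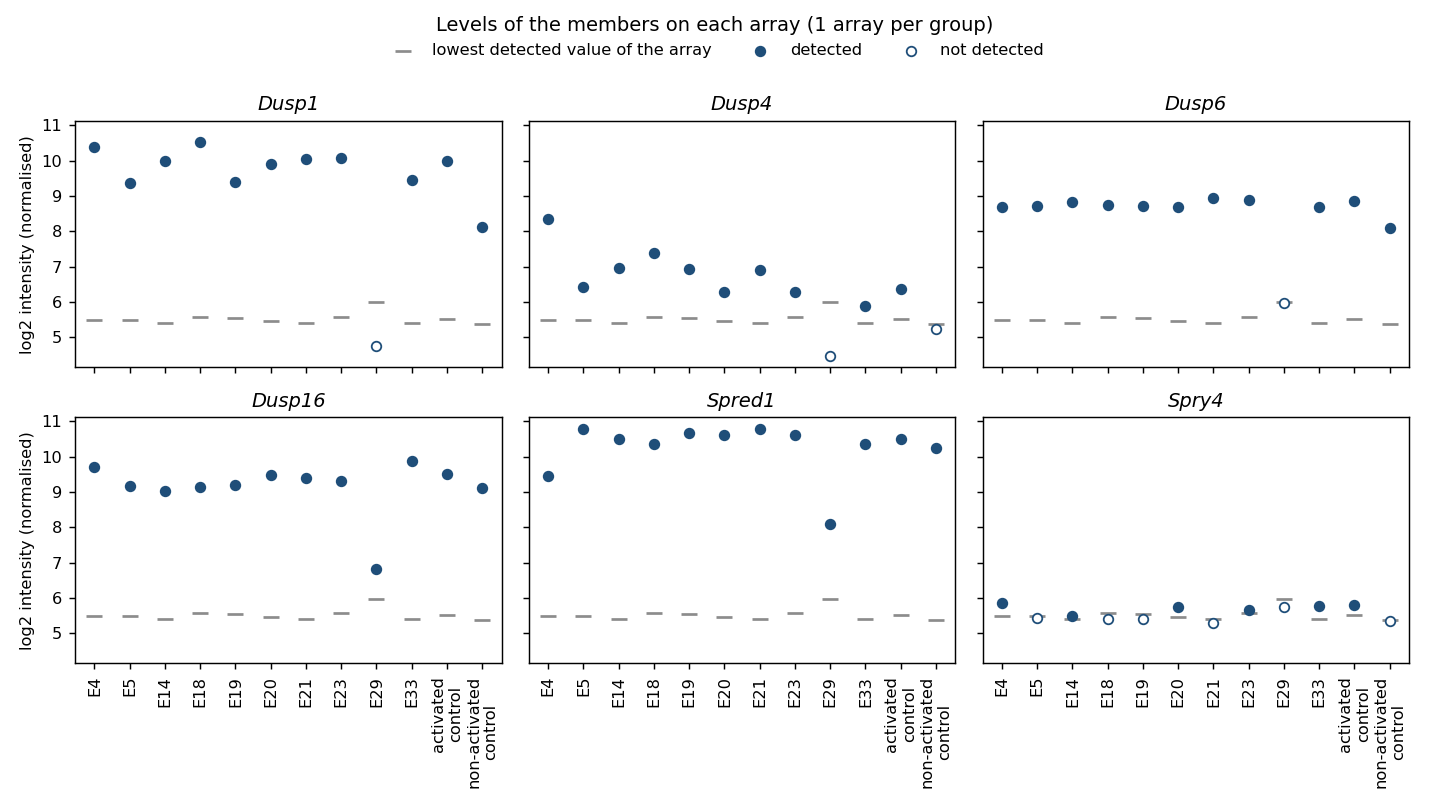
Normalised log2 intensity (vertical axis) of 6 genes on each of 12 arrays (horizontal axis), with 1 array per group. Filled points were detected, open points were not, and grey dashes mark the lowest detected value of the array. E29 lies lowest for Dusp1 (4.75), Dusp4 (4.48), Dusp6 (5.97), Dusp16 (6.82) and Spred1 (8.11), and E4 is highest for Dusp4 (8.34).

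The promoters of the 4 genes called lower with E29 are printed here because Dusp1 is a textbook target of cyclic AMP response elements (CRE) and the other 3 share its low level with E29. Each is the 250 bases upstream of the annotated start, 5′ to 3′ on the gene's strand, from RefSeq on mouse build GRCm38.p6. Capitals mark matches, on either strand, to CRE (TGACGTCA), its core (TGACG), AP-1 (TGANTCA), Ets (CCGGAA) and GAS (TTCNNNGAA), and to the CArG and NF-kB motifs by name. The windows are chr17:26508473-26508722 on the minus strand for Dusp1, chr10:99262981-99263230 on the plus strand for Dusp6, chr6:134792629-134792878 on the minus strand for Dusp16 and chr2:117120821-117121070 on the plus strand for Spred1.
Dusp1: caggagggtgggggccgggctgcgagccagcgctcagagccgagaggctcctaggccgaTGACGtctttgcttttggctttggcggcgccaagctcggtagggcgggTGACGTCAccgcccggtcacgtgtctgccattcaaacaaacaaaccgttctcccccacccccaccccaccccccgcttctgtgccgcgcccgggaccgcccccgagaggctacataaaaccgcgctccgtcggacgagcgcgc
Dusp6: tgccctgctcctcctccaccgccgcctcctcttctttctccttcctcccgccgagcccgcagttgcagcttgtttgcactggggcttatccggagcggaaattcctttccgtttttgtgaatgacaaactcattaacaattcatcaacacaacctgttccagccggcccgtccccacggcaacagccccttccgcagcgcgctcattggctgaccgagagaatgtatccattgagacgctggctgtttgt
Dusp16: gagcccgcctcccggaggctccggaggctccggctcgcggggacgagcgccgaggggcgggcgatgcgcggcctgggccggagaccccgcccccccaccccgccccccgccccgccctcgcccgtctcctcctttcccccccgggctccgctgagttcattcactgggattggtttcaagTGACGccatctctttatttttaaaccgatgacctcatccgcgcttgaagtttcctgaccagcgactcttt
Spred1: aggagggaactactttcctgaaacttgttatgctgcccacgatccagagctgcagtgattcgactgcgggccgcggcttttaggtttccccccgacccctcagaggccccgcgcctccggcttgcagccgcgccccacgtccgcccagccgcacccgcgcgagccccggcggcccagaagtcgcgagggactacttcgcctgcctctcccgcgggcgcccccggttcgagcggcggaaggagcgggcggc

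In the Dusp1 window a full CRE lies at positions -143 to -136, counted from the start of the gene, and a further core at -191 to -187. In the Dusp16 window a single CRE core lies at -70 to -66. The windows of Dusp6 and Spred1 hold no match to any of the motifs marked. The GC box (GGGCGG) was also searched and is not marked: it has 3 matches in the Dusp1 window, 5 in that of Dusp16, of which the last 2 overlap by 1 base, 2 in that of Spred1 and 0 in that of Dusp6, and 32.7% of all windows hold it. Of all 32851 windows of this length, 1.55% hold a full CRE and 17.8% a core, and the shares are 6.75% for AP-1, 12.0% for Ets, 1.47% for CArG, 7.25% for NF-kB and 7.02% for GAS. No motif searched was in all 4 windows. The GC content of the Dusp1 and Dusp16 windows was the same, at 68.4%, with 56.4% for Dusp6, 70.8% for Spred1 and a median of 52.4% over all windows. A match is a description of the letters and does not show that a factor binds.

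The comparison of the activated with the non-activated control asks how these genes differed after LPS and IFN-γ. Dusp1 and Dusp4 were higher, and no gene of the family was lower. Dusp1 was 3.60-fold higher (log2 1.85), and Dusp4 at least 2.01-fold higher, a bound because the probe was not detected without stimuli. The other 4 lay above 0 but under 2-fold: Dusp6 at 1.66-fold, Spry4 at least 1.35-fold, Dusp16 at 1.30-fold and Spred1 at 1.19-fold. Spry4 lay near the detection limit on both arrays, so its value carries no order between them. So 2 of 6 measured genes were called higher, against 3.17% of 7659 measured genes on the platform, and 0 of 6 lower, against 2.12%. Dusp4 and Spry4 counted as measured through the activated control alone, so these counts are a description. The median log2 change of the 6 was 0.58 and that of all measured genes was -0.04. The call of Dusp4 rests on the bound: it was under 2-fold after scaling to reference genes (log2 0.85), without background correction (0.38) and with an offset of 50 (0.64).

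Related genes were read from lists of the same pathways. Over all 7659 measured genes, 3.17% were higher in the activated control and 2.12% lower, with a median of -0.04. Some listed genes were detected on 1 of the 2 arrays alone, so the counts are a description. Of 3 other MAP kinase phosphatases measured, Dusp10, which acts on p38 and JNK, was 3.11-fold higher in the activated control (7.30 against 5.66 in the non-activated control), and none was lower. Dusp8 was at least 1.95-fold higher and Dusp7 differed by -0.13 log2 units. Spred2, the one gene measured of 3 other Sprouty and Spred genes, differed by 0.30. Of 19 measured genes that respond to ERK, 9 were higher and none was lower, with a median of 1.02. The largest differences were in Ccn1 (15.1-fold, a matrix protein gene), Egr2 (7.29-fold, an immediate early transcription factor), Vgf (4.00-fold, a secreted neuropeptide precursor) and Phlda1 (3.34-fold). Those of the list under 2-fold included Fos (log2 0.14), Egr1 (-0.06) and Etv5 (-0.87). The activity of ERK itself was not measured. None of the 11 measured genes from receptors to ERK reached 2-fold, with a median of 0.06. Of 15 measured genes of the p38 and JNK cascade 2 were higher and none lower (median 0.06), and of 8 atypical dual-specificity phosphatases 1 was higher and 1 lower (median -0.27). Of 8 other ERK feedback inhibitors 1 was higher, Errfi1, an inhibitor of the EGF receptor, at 3.24-fold, and none lower (median 0.02); Errfi1 was chosen after its values were seen.

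Compound E4 gave the largest increase in the family. Dusp4 was 3.88-fold higher with E4 than in the activated control (log2 1.96), while Spred1 was 2.08-fold lower (log2 -1.05). The second probe of Dusp4 (ILMN_2870965) gave at least 2.11-fold, with 6.60 with E4 and 5.12, not detected, in the activated control. The third was not detected on any array. Dusp1 (0.42), Dusp16 (0.19), Spry4 (0.06) and Dusp6 (-0.16) stayed within 0.5 log2 units. Thus 1 of 6 was higher, against 0.494% of measured genes, and 1 of 6 lower, against 2.88%. The decrease of Spred1 lay just past the threshold: it came to -0.98 when arrays were scaled to one median and to -0.96 with the background left in, both short of 2-fold. Of the ERK response genes 4 of 19 were higher with E4 and none lower: Egr1 at 2.56-fold, Ccn1 at 2.19-fold, Fosb at least 2.10-fold and Fos at 2.07-fold. None of the 3 other MAP kinase phosphatases reached 2-fold with E4 (median 0.34), nor did any of 11 genes from receptors to ERK (-0.14), 15 of the p38 and JNK cascade (0.00) or 8 atypical phosphatases (0.00). Of 6 other ERK feedback inhibitors 1 was higher, Errfi1 at 2.5-fold, and none lower (-0.22).

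**Figure D2:**
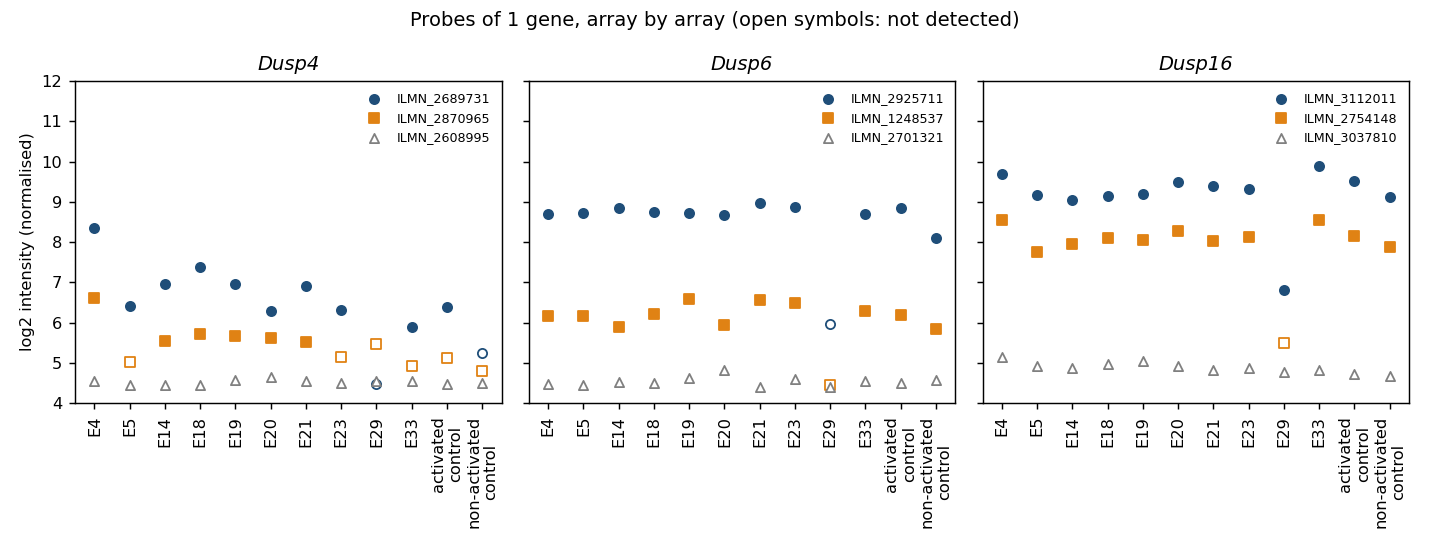
Normalised log2 intensity (vertical axis) of each probe of Dusp4, Dusp6 and Dusp16 on each of 12 arrays (horizontal axis); filled symbols were detected and open symbols were not. The 2 detected probes of Dusp4 are both highest with E4 (8.34 and 6.60), and both detected probes of Dusp6 and Dusp16 are lowest with E29.

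With E18 the change in Dusp4 was smaller. Dusp4 was 2.02-fold higher with E18 (7.39) than in the activated control (6.38), and its second probe gave at least 1.14-fold (log2 0.19). Dusp1 was 1.45-fold higher (log2 0.54) and Dusp16 lower by 0.36 log2 units, both short of 2-fold. The second probe of Dusp16 differed by -0.06. So 1 of 6 was higher, against 0.0408% of measured genes, and none was lower, against 0.259%. The call of Dusp4 stood on 2.02-fold, and in 5 of the other settings it was under 2-fold, with log2 changes from 0.19 to 0.99.

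The other 7 compounds moved no gene of the family by 2-fold. The shares of all measured genes called in either direction were 0.0947% for E5, 0.281% for E14, 0.409% for E19, 0.0406% for E20, 0.107% for E21, 0.041% for E23 and 0.973% for E33. Dusp1 came nearest with E5, at 1.51-fold lower (log2 -0.60), and it was lower by 0.58 log2 units with E19 and by 0.52 with E33. Dusp4 was higher by 0.58 with E14 and E19 and by 0.53 with E21, and lower by 0.50 with E33. All compounds were set against the same activated control array, so a deviation of that array would appear in every one of these values.

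**Figure D3:**
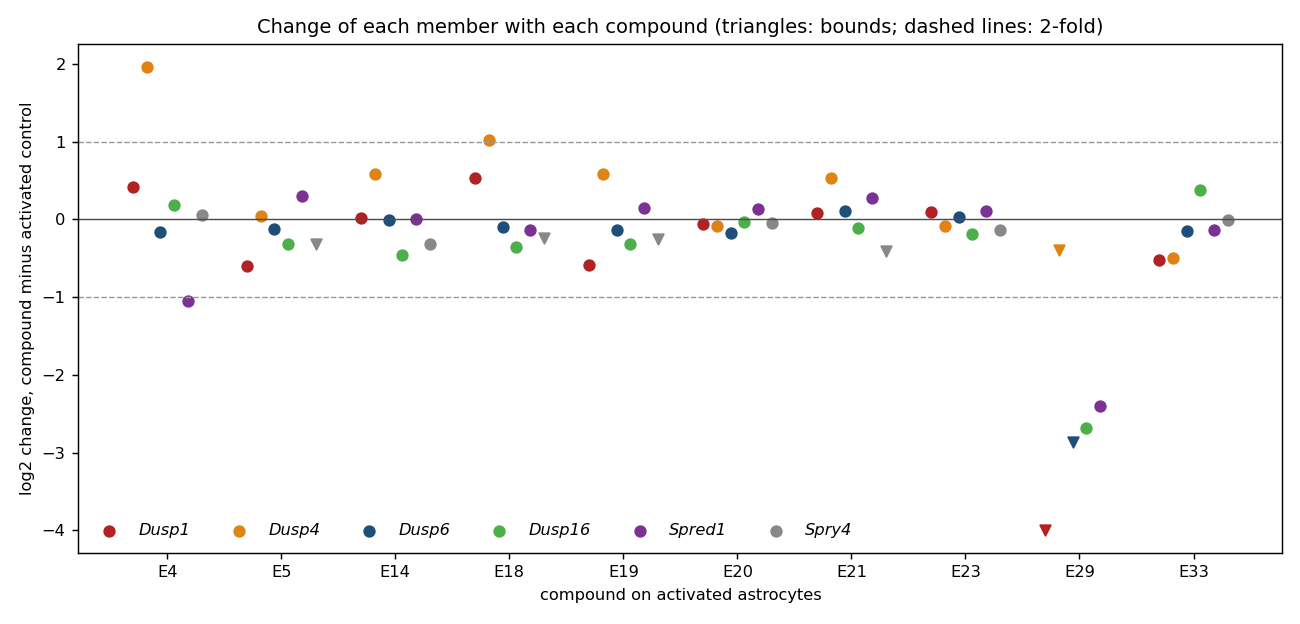
Log2 change of 6 genes (colours) with each of 10 compounds against the activated control (vertical axis), with triangles for bounds and dashed lines at 2-fold. Dusp4 is past 2-fold upwards with E4 (1.96) and E18 (1.02), Spred1 is past it downwards with E4 (-1.05), and 4 genes are past it with E29, from -2.40 to at least -3.99.

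With E29, 4 of the 9 genes were called lower than in the activated control. Dusp1 was at least 15.9-fold lower with E29 than in the activated control, Dusp6 at least 7.27-fold, Dusp16 6.42-fold and Spred1 5.27-fold. The first 2 are bounds, since neither probe was detected with E29, and for Dusp6 the detection p-value of 0.011 lay just above the threshold. Dusp4 was at least 1.31-fold lower, bounded by its own low level in the activated control, and for Spry4 no fold could be given. So 4 of 6 measured genes were lower, against 14.5% of 7472 measured genes, and none was higher, against 10.2%. The median log2 change of the 5 genes with a fold was -2.68, and that of all measured genes was 0.25. Dusp1, Dusp4, Dusp6 and Spry4 counted as measured through the activated control alone, so the count and the median are a description; Dusp16 and Spred1 were detected on both arrays. The second probe of Dusp4 was detected on neither array, and those of the other phosphatases went the same way: Dusp16 was at least 4.52-fold lower, and Dusp6 at least 1.15-fold, where the dim level of that probe (6.19 in the activated control) sets the bound.

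Set against the non-activated control instead, the same 4 genes lay below the level without stimuli. Dusp1 was at least 4.42-fold lower with E29 than in the non-activated control, Dusp6 at least 4.37-fold, Dusp16 4.95-fold and Spred1 4.45-fold. Over all measured genes 13.1% were lower and 7.38% higher in this comparison; with scaling to reference genes 2400 of 7619 were lower and 2 higher, against 998 and 562. Dusp1 and Dusp6 counted as measured through the non-activated control alone, Dusp16 and Spred1 were detected on both arrays, and Dusp4 and Spry4 on neither. The second probe of Dusp16 was at least 3.68-fold lower, and that of Dusp6 gave no fold, since its level without stimuli (5.84) lay under the floor of the E29 array. The E29 array detected the fewest probes of the 12, and its floor was the highest; their part in the result was not tested. In bulk RNA fewer cells of a type and less RNA per cell cannot be told apart. Against the activated control, 14.5% of all measured genes were lower with E29 and 10.2% higher (median 0.25). Of 7 measured astrocyte markers 1 was higher in that comparison and none lower (median 0.29). Of 10 reference genes 1 was lower there, Tbp at least 3.40-fold, and none higher (median 0.39). Against the non-activated control no astrocyte marker was called (median 0.47). The reference genes had a median of 0.64 there, and all measured genes 0.16. The sum of the deposited, non-normalised intensities of the 5 neuronal markers, 2 of them detected, ran from 2746 (E18) to 4097 (E29). Of the 2 detected neuronal markers 1 was higher with E29 than in the activated control (median 0.99) and 1 than in the non-activated control (median 1.12). Of 2 detected neural stem cell markers 1 was lower with E29 than in the activated control (median -0.90). This was not particular to E29: 1 of 2 was also lower with E4 (median -0.61), and 1 of 2 in the activated against the non-activated control (median -0.49). The part of these markers in the result was not tested.

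The wider cascade with E29 was uneven. Over all measured genes 14.5% were lower than in the activated control and 10.2% higher, with a median of 0.25. Genes given with the words at least were detected on 1 of the 2 arrays, so the counts are a description. Of 11 genes from receptors to ERK, 1 was higher and 1 lower, with a median of 0.14. At 9.09% each, these were no more than the shares over all genes. Of 14 measured genes of the p38 and JNK cascade 8 were lower and 1 was higher, with a median of -1.42. Among them, Map2k3, a kinase that activates p38, was 13.5-fold lower and the stress gene Gadd45b at least 30.3-fold; both were chosen after their values were seen. Of 19 ERK response genes 10 were lower and 1 higher, with a median of -2.07. Ccn1 was at least 23.9-fold lower, Phlda1 23.5-fold, Ier3 (an early-response survival gene) 17.1-fold and Junb (an AP-1 subunit) 16.5-fold, while Fosb was at least 2.21-fold higher. Of the other MAP kinase phosphatases, Dusp10 was at least 2.48-fold lower, 1 of 3 measured (median -0.94). Of 7 other ERK feedback inhibitors 3 were lower and none higher (median -0.31), among them Errfi1 at least 35.4-fold lower. Of 8 atypical phosphatases 2 were higher and 1 lower (median 0.39).

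**Figure D4:**
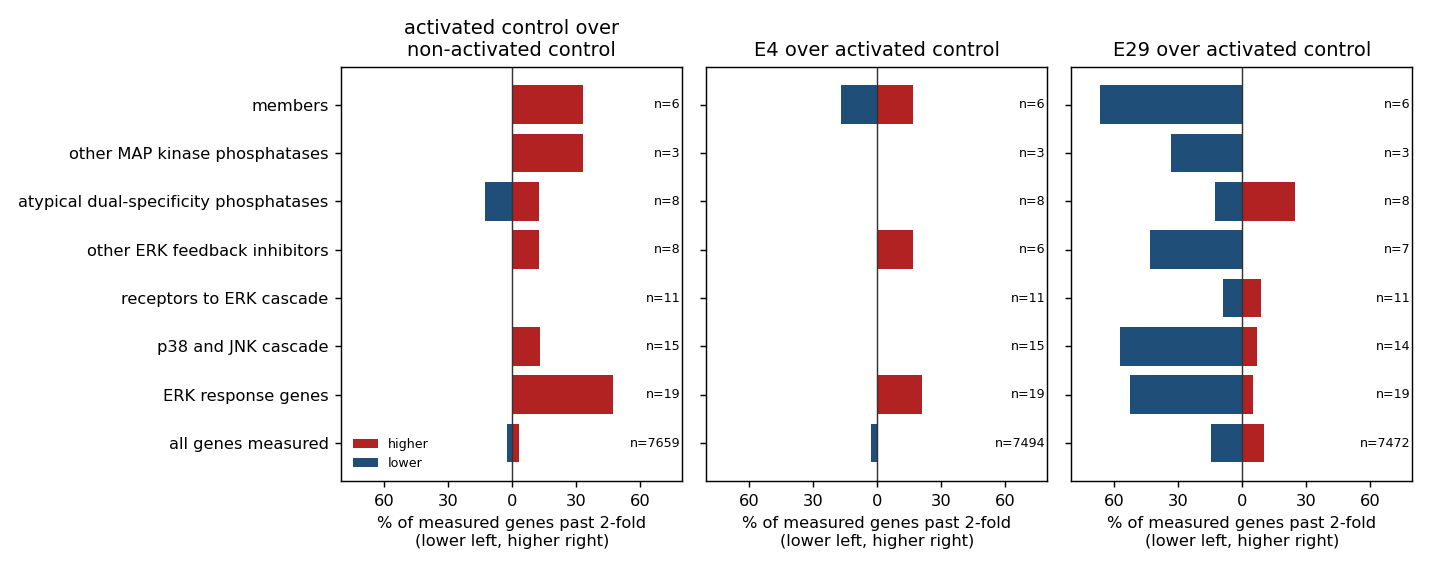
Percent of measured genes past 2-fold (horizontal axis, higher to the right and lower to the left) in 7 gene groups and over all genes, for the activated over the non-activated control, E4 over the activated control and E29 over the activated control; n is the number measured. With E29, 4 of 6 family members and 10 of 19 ERK response genes were lower, against 14.5% of all genes.

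With E33, 4 of 18 measured ERK response genes were lower and none higher, against 0.773% and 0.2% of all measured genes: Vgf at 5.22-fold, Egr2 at 2.92-fold, Plaur at 2.21-fold and Hbegf at 2.13-fold. None of the feedback genes reached 2-fold with E33, and Dusp16 was at its highest level of the 12 arrays (9.88). With E19 Egr2 was 2.63-fold lower, 1 of 18 measured, against 0.354% of all measured genes lower.

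How the family members vary together was described by Pearson's r over the arrays, which share the same normalisation and one E29 array far from the rest. Between Dusp1 and Dusp6 r was 0.969 over 12 arrays, 0.807 over 11 without E29 and 0.259 over the 10 activated arrays without E29. Between Dusp1 and Dusp4 it was 0.812, 0.763 and 0.627 over the same arrays. Between Dusp1 and Dusp16 it was 0.896, 0.216 and -0.0437, and between Dusp16 and Spred1 0.776, -0.412 and -0.489. The likeness of Dusp1 to Dusp6 thus rests on E29 and the non-activated control, and that of Dusp16 to Dusp1 and to Spred1 on E29. The set of 10 arrays was chosen after seeing the data. No p is given for any of these values.

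The genes with the most similar profiles were taken among 2148 genes that were detected on every array and varied by an SD of at least 0.3. For Dusp1 the 3 nearest were Rnd3 (r 0.988 over 12 arrays, 0.925 without E29), Stk40 (0.982, 0.901) and Tgif1 (0.981, 0.877). For Dusp4 they were Mapk1ip1l (0.971, 0.953), Zbtb2 (0.951, 0.920) and Rorb (0.940, 0.905), and Mapk1ip1l stayed nearest without E29. Dusp6 had Plagl2 (0.996, 0.930), D5Ertd579e (0.992, 0.875) and Zfp263 (0.992, 0.899), none of which was among the 3 nearest once E29 was left out. Dusp16 had Zfp869 (0.975, 0.722), Nck1 (0.962, 0.536) and Birc2 (0.960, 0.513), likewise not among its 3 nearest without E29. Spred1 had Nol10 (0.989, 0.95), Rcl1 (0.981, 0.913) and Ehd4 (0.980, 0.912), with Nol10 nearest in both. Spry4 had Gatd1 (0.744, 0.769), Slc27a1 (0.671, 0.689) and Nnmt (0.648, 0.623), over a range of levels within 0.56. Spry4 was detected on 6 of the 12 arrays and its levels carry no order, so no likeness is read from these 3 genes. Every r, here and between members, used the measured levels, also where a member was not detected. Over the 10 activated arrays without E29, r with these genes was 0.659 to 0.75 for Dusp1, 0.893 to 0.984 for Dusp4, 0.567 to 0.685 for Dusp6, 0.454 to 0.738 for Dusp16, 0.58 to 0.76 for Spry4 and 0.912 to 0.95 for Spred1. Among those 10 arrays E4 was highest for Dusp4 (8.34, with E18 next at 7.39), as it was for the 3 genes named for Dusp4. It was lowest for Spred1 (9.45, with E18 next at 10.36). How far these values of r rest on the E4 array was not tested. The 2148 genes share the arrays and the E29 difference with the members.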

How the data were processed

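RNA from 12 groups of mouse astrocytes was labelled with biotin and run on 1-colour Illumina bead arrays, 1 array per group. The authors deposited intensities of the probes that had not been normalised, per the file headers, with detection p-values that the authors deposited beside them. The submitters' processing notes name GenomeStudio 2010.3. A background subtraction before deposit is not stated in the labels. The authors' second deposited table, of processed intensities, was an alternative.

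The function neqc of limma 3.58.1 (R 4.3.3, offset 16) corrected the background, normalised by quantiles and gave log2 values. Tables were made in Python 3.11.15 with pandas 2.3.3. Of 25697 probes, 23978 had a gene symbol in the platform annotation. A gene counted as measured where either array compared detected it (p-value under 0.01), was read from its brightest probe over all arrays, and was called at 2-fold. No test could be run between single arrays, whose number, with the signal over background, limits the precision. The number of cultures behind an array is not in the labels. The normalisation was tested on simulated data.

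The members, the gene lists and the naming rule were chosen with earlier results of these data known. Named were all members, up to 4 genes per direction from 3 lists (other Sprouty and Spred genes, other MAP kinase phosphatases, ERK response genes) and the 3 genes most like each member. The rule took list genes past 2-fold in a comparison described. Errfi1, Map2k3, Gadd45b, Tbp and Etv5 fall outside this rule and were named after their values were seen. Dusp8 and Spred2, which did not reach 2-fold, fall outside it as well. Promoters are those of RefSeq for GRCm38.p6. The alternatives were other normalisations, backgrounds, offsets, detection filters, baselines, probes and thresholds.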

Additional observations from a re-analysis of the deposited data

How the results depend on the processing

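Each group is 1 array, so no replicate could be left out, and no paired analysis was possible because each group holds 1 array. Of 13 called changes of family members, 9 kept their call in each alternative that gave a value. Of 131 such values, 120 kept it, 11 lost it and 0 reversed. Some of the 131 values could not have lost a call. The 1.5-fold threshold is a looser cut on the same values. Leaving out filter and floor, or detection at 0.05, leaves changes detected on both arrays as they were and can only enlarge a bound. The count of 120 therefore overstates how far the calls were tested. In 12 cases an alternative gave no value: genes with 1 probe have no next brightest, the second probe of Dusp4 (activation) and of Dusp6 (E29 against the non-activated control) gave none, and the median of the activated arrays does not apply to E29 against the non-activated control. Activation called 2 members higher, and 1 with scaling to reference genes, without background correction, with an offset of 50 and with the next brightest probe. E4 called 1 member lower, and 0 after scaling to one median or with the background left in. Over E5, E14, E18, E19, E20, E21 and E23, 1 member change was called (Dusp4 with E18), and 0 with scaling to reference genes, without background correction, with an offset of 50, against the median of the activated arrays and with the next brightest probe, but 2 with 1.5-fold calls. With E29 the log2 changes ranged from -5.23 to -2.80 for Dusp1, from -3.62 to -0.20 for Dusp6, from -3.48 to -1.98 for Dusp16 and from -3.15 to -2.07 for Spred1. Dusp6 lost its call there with its next brightest probe. Dusp4 with E29 was past 2-fold in some settings, at -1.13 with scaling to reference genes and with detection at 0.05, and at -1.90 without filter or floor. Scaling to reference genes moved the median of all genes with E29 to -0.33, against 0.25, and called 33 genes higher and 2023 lower, against 760 and 1082. Activation gave 180 higher and 320 lower under that scaling, against 243 and 162. E4 gave 9 higher and 668 lower, against 37 and 216, and E18 1 and 71, against 3 and 19. With E29, 106 genes were higher and 704 lower without background correction, and 354 and 918 with an offset of 50. Counting changes from the median of all genes, a setting chosen after seeing the data, gave 286 higher and 1372 lower with E29 against the activated control, and 268 and 1173 against the non-activated control. Dim members such as Spry4 and the second probe of Dusp6 are limited by the lowest detected value. The cause of these changes was not tested.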
